A study of Mus musculus with 32 samples.

Results

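The comparison described here is of haematopoietic stem and progenitor cells kept for 2 h in medium conditioned by hepatocytes against the same kind of cells kept for 2 h in basic medium. Its members are 6 of the 32 libraries of the series, taken as the columns of the deposited count table named co-SHI (conditioned medium, 3 libraries) and SHI (basic medium, 3 libraries). Regions on the autosomes were used, 144587 of the 147852 in the table, and 141958 of them had enough counts to be tested. In both groups the cells came from the fetal liver of C57BL/6 mice at E12.5 and were of the LSK phenotype (negative for lineage markers, positive for Sca-1 and Kit), and the hepatocytes that conditioned the medium came from E16.5 embryos. Nothing in the labels gives a genotype other than the strain, says whether the libraries of a group came from separate embryos or cultures, or states what the basic medium held. The p-values below therefore measure the spread between these libraries, which may be technical. ATAC-seq was used throughout, in which the Tn5 transposase cuts and tags open chromatin, so that the number of reads over a region measures how accessible its DNA is. The labels pose the comparison as one between the 2 media, and the measurement is of chromatin, not of RNA or protein.

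The fetal liver is the main site where blood stem cells multiply before birth, and its hepatocyte lineage secretes cytokines such as thrombopoietin, as well as lipoproteins and plasma proteins. Thrombopoietin and related cytokines signal through the JAK kinases to STAT5. Type I interferons use a related route: their receptor, made of Ifnar1 and Ifnar2, activates the kinases Jak1 and Tyk2, which phosphorylate transcription factors of the STAT family. A complex of these with Irf9 binds a short DNA element, the interferon-stimulated response element (ISRE), in the promoters of antiviral genes, among them Irf7, which amplifies the response. Low, tonic interferon signalling is known to set the baseline of these genes in blood stem cells.

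The direction of every difference below is that of the column names, and the deposited files disagree on those names. Each library also has its own deposited list of peaks, with a fold enrichment for every peak. Over the regions that hold a peak, the enrichment in each list was compared with the level in each of the 6 columns by Spearman's rank correlation. All 6 lists matched best a column of the other group. The lists named SHI 1, SHI 2 and SHI 3 matched the columns co-SHI 1 (rho = 0.642), co-SHI 3 (0.646) and co-SHI 2 (0.638), against 0.588, 0.576 and 0.604 for the columns of their own names. The lists named co-SHI 1, 2 and 3 matched the columns SHI 1 (0.66), SHI 2 (0.668) and SHI 3 (0.641), against 0.62, 0.625 and 0.588 for their own. These are descriptions across regions, which are not independent. The difference between lists (co-SHI minus SHI) and the difference between columns ran against each other, with r = -0.43 over the 141958 tested regions and r = -0.78 over the 812 regions called below. Of the regions called lower in the co-SHI columns, 139 held a peak in lists named co-SHI alone and 1 in lists named SHI alone. Of those called higher, 84 held a peak in lists named SHI alone and 0 in lists named co-SHI alone. Which of the names is right cannot be told from the files. If the peak lists carry the right names, every direction below turns around: higher in the co-SHI columns would be lower in conditioned medium.

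**Figure D1:**
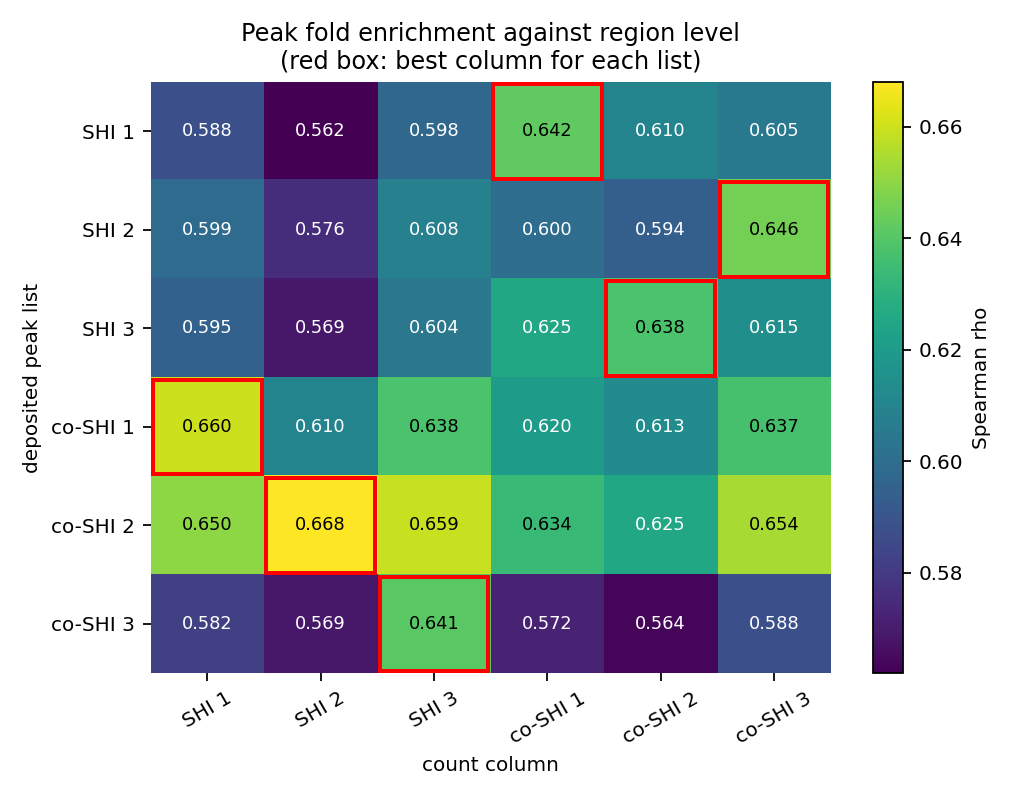
Spearman's rho between the fold enrichment of peaks in each deposited list (rows) and the level of the same regions in each count column (columns), over regions with a peak in that list. The red box marks the best column for each list, and all 6 boxes lie in the columns of the other group.

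The peak names in the lists also hold a run of 6 digits whose meaning the sources do not state. It is 190605 in the 3 lists that match the SHI columns. It is 190801 in the lists that match co-SHI 1 and co-SHI 2 and 190623 in the list that matches co-SHI 3. Whatever these digits mark and the medium cannot be told apart. Autosomal counts were 11439873, 7376233 and 11437212 in the SHI columns and 18287206, 19681665 and 14008872 in the co-SHI columns, so every co-SHI library was deeper. In log2 CPM (counts scaled by library size), the SHI libraries correlated with each other at 0.906 to 0.927 and with co-SHI libraries at 0.902 to 0.933, while co-SHI libraries correlated with each other at 0.941 to 0.961. Regions in or near the Kit gene and Ptprc (CD45), and near but outside the Sca-1 gene Ly6a, had counts in every library. Their summed levels were 114 to 129 CPM for Kit, 141 to 163 CPM for Ptprc and 10.5 to 27.9 CPM for Ly6a. Of the 16 measured hepatocyte genes edgeR and DESeq2 called 0 (3 had an unadjusted p under 0.05, all higher), and their summed level was 452 to 476 CPM in the SHI and 464 to 507 CPM in the co-SHI columns. Alb, the hepatocyte albumin gene, stood at 34.5 ± 1.12 and 32.7 ± 1.18 CPM (SD, n = 3 each; edgeR adjusted p = 0.64).

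Promoters of interferon-stimulated genes carried the difference that is easiest to read in sequence. The windows below, from RefSeq (GRCm38.p6, 250 bases before to 50 bases after the transcript start, written 5′ to 3′ along the gene's strand), are the 5 of smallest p among the promoter regions called lower in the co-SHI columns that hold the ISRE letters (GAAA, any 2 bases, GAAA) on either strand. Capitals mark every match of those letters or of their reverse complement.
Rsad2: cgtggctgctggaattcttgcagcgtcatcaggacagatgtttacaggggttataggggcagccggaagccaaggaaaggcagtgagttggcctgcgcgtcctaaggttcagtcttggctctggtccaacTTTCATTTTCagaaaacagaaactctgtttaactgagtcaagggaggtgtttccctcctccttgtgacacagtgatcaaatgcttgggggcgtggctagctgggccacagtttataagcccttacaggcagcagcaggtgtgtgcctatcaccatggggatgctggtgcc
Ifit3b: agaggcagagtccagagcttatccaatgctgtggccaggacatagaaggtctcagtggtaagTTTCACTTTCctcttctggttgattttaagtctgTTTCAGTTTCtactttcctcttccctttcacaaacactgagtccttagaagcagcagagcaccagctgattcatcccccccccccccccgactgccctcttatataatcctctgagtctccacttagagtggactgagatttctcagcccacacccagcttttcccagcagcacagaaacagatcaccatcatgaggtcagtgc
Irgm1: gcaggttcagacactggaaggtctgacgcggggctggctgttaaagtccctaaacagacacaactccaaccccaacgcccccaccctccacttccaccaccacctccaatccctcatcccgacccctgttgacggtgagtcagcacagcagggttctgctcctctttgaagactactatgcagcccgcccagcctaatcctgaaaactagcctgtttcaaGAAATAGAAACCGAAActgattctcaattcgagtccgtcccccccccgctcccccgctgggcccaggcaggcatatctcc
Oas3: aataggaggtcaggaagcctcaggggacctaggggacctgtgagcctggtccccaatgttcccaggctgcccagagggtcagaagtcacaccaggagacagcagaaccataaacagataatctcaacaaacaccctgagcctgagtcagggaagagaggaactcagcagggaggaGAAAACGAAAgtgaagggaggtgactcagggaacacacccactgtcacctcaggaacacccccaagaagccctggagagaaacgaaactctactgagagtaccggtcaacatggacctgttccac
Ifit3: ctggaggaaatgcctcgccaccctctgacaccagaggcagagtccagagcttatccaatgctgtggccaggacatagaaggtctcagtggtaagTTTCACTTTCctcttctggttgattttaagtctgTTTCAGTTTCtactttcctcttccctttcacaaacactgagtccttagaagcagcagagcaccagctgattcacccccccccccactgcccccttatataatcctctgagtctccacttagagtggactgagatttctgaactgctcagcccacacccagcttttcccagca
The last window, of the promoter region of smallest p among those called higher, is shown for contrast and has no match.
Opn3: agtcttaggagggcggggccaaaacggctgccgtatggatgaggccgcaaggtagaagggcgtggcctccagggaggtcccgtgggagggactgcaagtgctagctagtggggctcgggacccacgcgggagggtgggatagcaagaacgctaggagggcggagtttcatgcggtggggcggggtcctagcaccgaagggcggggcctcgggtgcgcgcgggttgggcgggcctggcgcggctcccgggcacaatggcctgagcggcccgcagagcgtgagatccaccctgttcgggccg
The windows lie at chr12:26456403-26456702 (Rsad2, minus strand), chr19:34607707-34608006 (Ifit3b, plus), chr11:48871371-48871670 (Irgm1, minus), chr5:120777610-120777909 (Oas3, minus), chr19:34583279-34583578 (Ifit3, plus) and chr1:175692583-175692882 (Opn3, minus). The first matched base lies 120 bases before the transcript start in Rsad2 and 75 bases before it in Oas3. Irgm1 has 2 overlapping matches that begin 30 and 24 bases before the start. Ifit3b has 2 matches, beginning 188 and 154 bases before the start, and Ifit3 has 2, beginning 156 and 122 bases before it. Ifit3 and Ifit3b are neighbouring, closely related genes. How reads that fit both copies were counted is not given in the sources used here, so the split of counts between them is uncertain.

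Each of the promoters shown with ISRE letters was more open in the SHI than in the co-SHI columns. Rsad2 encodes viperin, an antiviral enzyme of the endoplasmic reticulum, and the region over its promoter (chr12:26456195-26456705 in mm10) read 18.6, 12.2 and 18.9 CPM in the SHI columns and 6.51, 5.1 and 6.48 CPM in the co-SHI columns. Every SHI library was above every co-SHI library, as in 7.84% of all tested regions, and the log2 fold change was -1.47 ± 0.18 (SE; edgeR adjusted p = 9e-06). The Ifit3b region (chr19:34607446-34608011) read 13.6, 8.52 and 16.3 CPM against 4.0, 4.95 and 3.9 CPM, a log2 fold change of -1.59 ± 0.21 (adjusted p = 2.9e-05). At Ifit3, whose product binds the ends of viral RNA together with its relatives, the region (chr19:34583036-34583605) read 7.04, 3.79 and 8.51 against 2.72, 1.21 and 1.55 CPM (log2 fold change -1.84 ± 0.29, adjusted p = 0.00066). These 3 regions share an order: SHI 2, the library with the fewest counts, was the lowest of the SHI libraries and still stood above all co-SHI libraries.

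Across the table, 812 of 141958 regions (0.572%) had an adjusted p under 0.05, and 17706 had an unadjusted p under 0.05. Of the 812, 336 were higher (0.237%) and 476 lower (0.335%) in the co-SHI columns. The median size of the log2 fold change was 0.86 among the higher and 1.08 among the lower regions. In a bulk sample, a change in the share of cells with an open region and a change within each cell cannot be told apart. The number of calls changed when 1 library was left out: it was 553 without SHI 1, 244 without SHI 2 and 445 without SHI 3. It was 187 without co-SHI 1 and 209 without co-SHI 2, and it rose to 3439 without co-SHI 3. A fit with 1 library fewer has less power, so the falls alone do not show that the calls rest on particular libraries. co-SHI 3 is the library whose matching peak list has its own run of digits, and the part of that in the result was not tested.

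**Figure D2:**
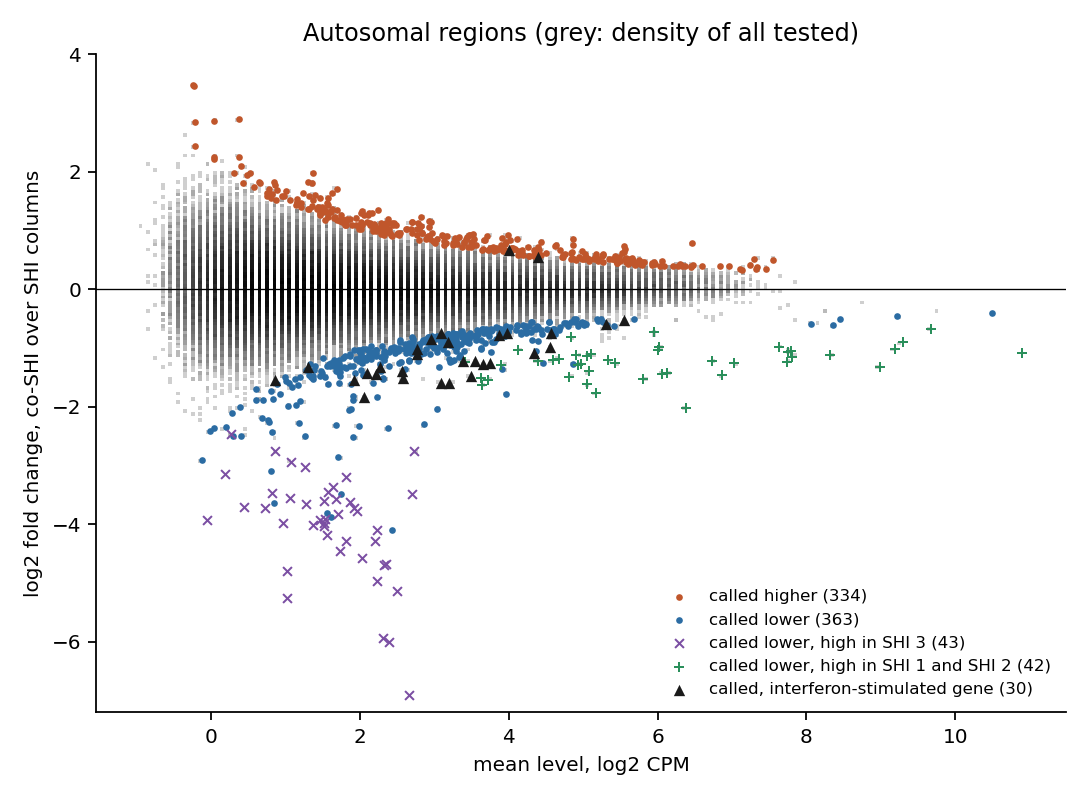
Log2 fold change of the co-SHI over the SHI columns (vertical axis) against the mean level in log2 CPM (horizontal axis) for autosomal regions. Grey shows the density of all tested regions and symbols show the called ones: crosses are the lower regions high in SHI 3 (43), plus signs those high in SHI 1 and SHI 2 (42), and black triangles those of interferon-stimulated genes, 28 below zero and 2 above.

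Among the regions called lower, 85 of 476 (17.9%) belonged to 2 sets in which the SHI libraries themselves differed widely, and which were defined after their values were seen. The first set holds 45 regions in which SHI 3 was at least 2-fold above SHI 1 and SHI 2 and every co-SHI library was under 0.5 times every SHI library. Their median level was 1.816, 3.219 and 12.49 CPM in SHI 1, 2 and 3, and 0.3821, 0.4125 and 0.303 CPM in the co-SHI libraries. In the 3 uncultured E12.5 FL columns of the same table (fetal liver cells of that stage not kept in culture) it was 3.97, 2.779 and 15.89 CPM. Of these regions 43 were called lower, and they make up 17 of the 20 lower regions of smallest p. The 45 regions lie on 18 chromosomes, 18 of them more than 50 kb from a gene and 0 at a gene end. A region in the body of Nsd2, a histone H3 lysine methyltransferase gene, is an example (chr5:33857440-33857948): it read 3.17, 5.68 and 24.0 CPM in the SHI and 0.0534, 0.354 and 0.589 CPM in the co-SHI columns. Regions in or near Ppard, Phlpp2, Plcz1, Dgkb, Pacs1 and Myh15 had the same form, with log2 fold changes of -3.48 to -4.58.

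The second set holds 50 regions with a mean of at least 10 CPM in which SHI 1 and SHI 2 were each at least 1.5-fold above all other libraries. Their median level was 57.9, 98.9 and 19.6 CPM in SHI 1, 2 and 3 and 26.9, 32.9 and 22.9 CPM in the co-SHI libraries, and 42 were called lower. They took 1.04%, 1.63% and 0.399% of the autosomal counts in SHI 1, 2 and 3 and 0.448% to 0.542% in the co-SHI libraries. Of the 50, 35 lie more than 50 kb from any gene and 0 at a gene end, and 19 lie within the first assembled stretch of chromosome 9 (chr9:3000192-3038380). Without both sets, 832 regions were called, 410 higher and 422 lower, of which 727 were among the 812.

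Position relative to genes differed between the directions. Gene ends, regions within 1 kb of either end of a gene's span, made up 14.1% of tested regions, 25% of the regions called higher and 10.3% of those called lower. Regions over a promoter window were 7.58% of tested, 17.3% of higher and 4.83% of lower regions. Regions more than 50 kb from any gene were 16.8%, 30.7% and 20.4%, and gene bodies 44.0%, 28.9% and 42.9%. Without both co-varying sets 49 of 391 lower regions were far from genes. Over whole libraries, gene ends held 38.4%, 38.1% and 38.2% of autosomal counts in the SHI and 38.5%, 39.4% and 39.3% in the co-SHI columns. Every co-SHI library was above every SHI library, a difference of 0.857 percentage points between means of 39.1 ± 0.53 and 38.2 ± 0.17 (exact permutation test, two-sided p = 0.1, the smallest that 3 against 3 libraries allow).

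**Figure D3:**
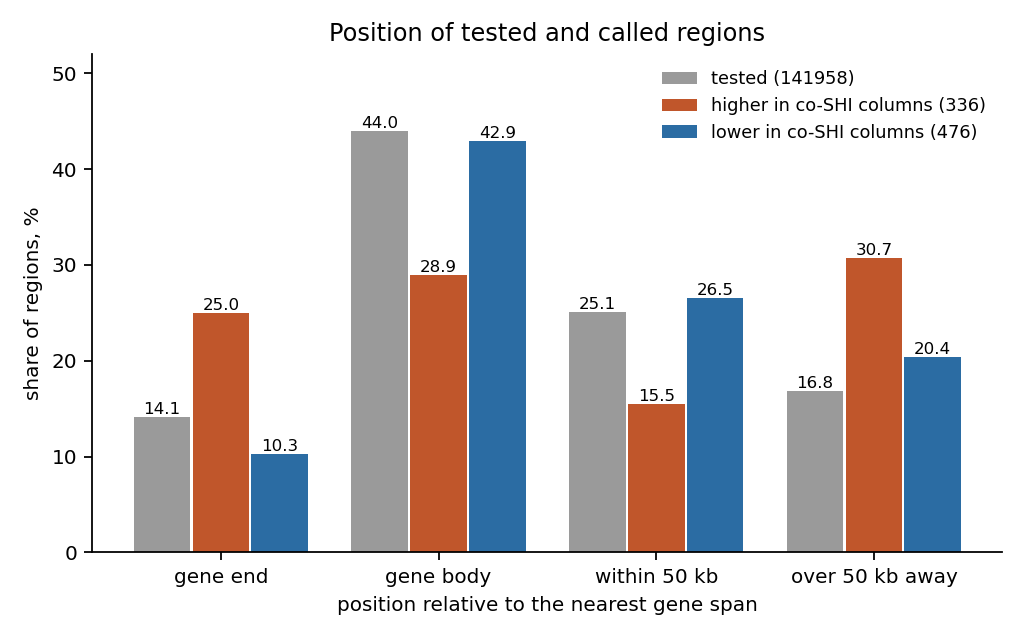
Share of regions (vertical axis, %) by position relative to the nearest gene span (horizontal axis) for all tested regions and for those called higher or lower in the co-SHI columns. Higher regions sit more often at gene ends and beyond 50 kb, and less often in gene bodies, than tested regions.

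Counts were then summed over all regions nearest to a gene within 50 kb and scaled anew to CPM over genes, so the level of a gene with 1 region differs slightly from that of the region. On this scale 1207 of 16730 genes (7.21%) were called, 813 higher (4.86%) and 394 lower (2.36%), and the median log2 fold change of all genes was -0.01. The number of called genes was 143 without SHI 1, 146 without SHI 2 and 1033 without SHI 3. It was 129 without co-SHI 1, 164 without co-SHI 2 and 2870 without co-SHI 3. Of the 61 called genes examined one by one, 61 kept their direction and 27 their call whichever library was left out.

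Interferon response genes held the largest share of lower genes of the lists examined. Of the 22 genes on the list 19 were measured, and 10 of them were called lower (52.6%, against 2.36% of all genes). None was called higher by edgeR (1 had an unadjusted p under 0.05 in that direction). The list's median log2 fold change was -0.40, beside -0.01 over all genes, and 15 of 19 members were below zero. It held 5 lower genes without SHI 1 and 7 to 11 when any other library was left out, with medians of -0.32 to -0.49. The list is one of those written with earlier results of these data known, so its count describes it and is no independent evidence of its direction.

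The receptors and kinases at the top of the pathway were not among the called genes. Ifnar1 had 206, 202 and 197 CPM in the SHI and 187, 191 and 204 CPM in the co-SHI columns, with overlapping groups (log2 fold change -0.06 ± 0.06, adjusted p = 0.59). Ifnar2 (-0.03 ± 0.06), Jak1 (0.04 ± 0.06) and Tyk2 (-0.04 ± 0.07) lay as close to zero. Of 24 measured receptors, sensors and signal transducers, 2 were called lower (8.33%, beside 2.36% of all genes) and 0 higher. These 2 were Irf9 and Irf7, and the list was written after results were seen. Stat2 was at -0.03 ± 0.09 (adjusted p = 0.88). The RNA sensors Ddx58 (RIG-I, -0.25 ± 0.12, adjusted p = 0.19) and Ifih1 (MDA5, 0.08 ± 0.09, adjusted p = 0.6) missed it as well.

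Irf9, the DNA-binding partner of STAT factors, has 1 region in the table, over its promoter (chr14:55603774-55604346). The summed level of the gene was 56.3, 48.8 and 53.0 CPM in the SHI and 31.4, 35.7 and 38.3 CPM in the co-SHI columns, so that all SHI libraries were higher (log2 fold change -0.59 ± 0.1, adjusted p = 0.005). Irf7 read 55.6, 41.9 and 58.6 against 34.4, 30.6 and 34.0 CPM (-0.67 ± 0.11, adjusted p = 0.005). Its promoter region (chr7:141265829-141266763) moved further than the sum over the gene, at -1.08 ± 0.17 (adjusted p = 0.00039). Both genes stayed called whichever library was left out.

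Among the antiviral effectors, Xaf1, an antagonist of an inhibitor of apoptosis, was lower with the smallest p of the list. It read 26.1, 24.2 and 33.9 CPM in the SHI and 13.3, 12.9 and 13.6 CPM in the co-SHI columns (-1.09 ± 0.13, adjusted p = 0.0012), and its promoter region (chr11:72301318-72301830) moved by -1.26 ± 0.18. Oasl2, of the family that senses double-stranded RNA, read 53.7, 43.5 and 45.8 against 29.7, 30.2 and 30.6 CPM (-0.67 ± 0.1, adjusted p = 0.0034). Over its gene end, the region (chr5:114897228-114898026) read 14.3, 12 and 15.2 against 3.9, 5.36 and 4.57 CPM, a log2 fold change of -1.59 ± 0.19 (adjusted p = 4.5e-06). Ifit3 as a gene fell by 1.83 on the log2 scale (SE 0.32, adjusted p = 0.0071). Xaf1, Oasl2 and Ifit3 kept their call with any library left out.

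Other members were called with all 6 libraries but not with each library left out. Rsad2 as a gene read 49.3, 37.2 and 48.4 against 31.6, 26 and 32.0 CPM (-0.60 ± 0.12, adjusted p = 0.0083), and its adjusted p was 0.06 without SHI 1. Isg15, a ubiquitin-like modifier, read 9.96, 4.97 and 10.3 against 3.7, 5.08 and 4.68 CPM (-0.94 ± 0.25, adjusted p = 0.03). Its SHI 2 value lay within the co-SHI range, and the call was lost without SHI 1, SHI 3, co-SHI 1 or co-SHI 2 (highest adjusted p 0.14). Oas2 (-1.14 ± 0.31) had an SHI 2 value of 4.22 CPM inside the co-SHI range of 3.49 to 6.89 CPM and lost its call without SHI 1, SHI 3 or co-SHI 1 (highest adjusted p of these fits 0.16). Oas1a (-0.85 ± 0.2) lost its call without SHI 1 or co-SHI 2 (highest 0.13). Bst2 (tetherin, -0.40 ± 0.11) lost it in 5 of the 6 fits, all but the one without co-SHI 3 (highest 0.18). Counts at the Oas genes may be split between close copies, as for Ifit3. Every co-SHI library was below every SHI library in 8 of the 19 measured members of the list, and in 13.3% of all genes.

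**Figure D4:**
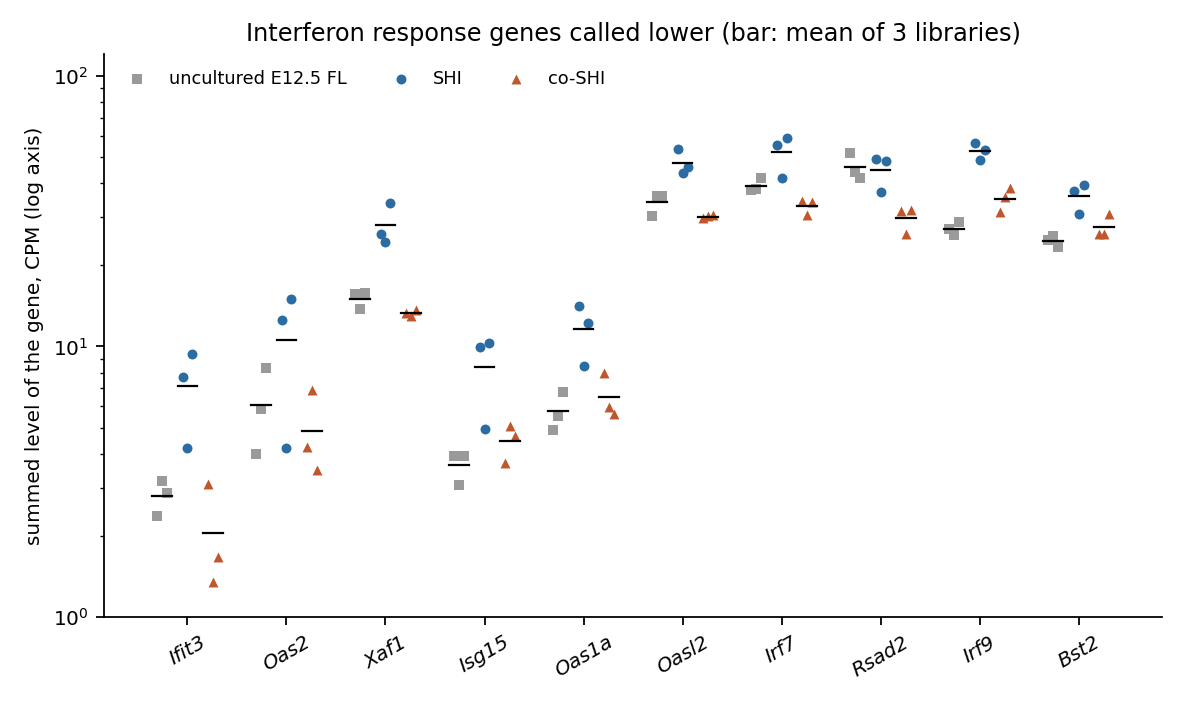
Summed level (vertical axis, CPM, log axis) of the 10 interferon response genes called lower, in each library of the uncultured E12.5 FL, SHI and co-SHI columns; bars are means of 3 libraries. All SHI points lie above all co-SHI points for 7 of the 10 genes; the lowest SHI library reaches the co-SHI range for Isg15, Oas2 and Bst2.

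A wider set of interferon-stimulated genes, written after the first list was seen to differ, gave 28 lower and 0 higher of 84 measured (33.3% lower, median -0.17; 5 were higher at an unadjusted p under 0.05 in edgeR). The number lower was 8 without SHI 1 or without co-SHI 1, 18 without SHI 2, 13 without SHI 3, 11 without co-SHI 2 and 31 without co-SHI 3. Slfn5, of the schlafen family of growth regulators, read 33.0, 29.1 and 36.2 CPM in the SHI and 19.3, 20.1 and 19.6 CPM in the co-SHI columns (-0.74 ± 0.11, adjusted p = 0.0034). Lgals3bp, a secreted glycoprotein that binds galectins, read 36.9, 29.4 and 37.4 against 20.6, 22.5 and 21.4 CPM (-0.70 ± 0.11, adjusted p = 0.005). Trim12c (-0.51 ± 0.09), a tripartite-motif gene of a cluster of close copies, and Rnf213 (-0.44 ± 0.08), a large ubiquitin ligase, were also lower. These 4 genes stayed called with any library left out, whereas Adar, which edits double-stranded RNA (-0.49 ± 0.09), reached an adjusted p of 0.05 without SHI 1. The guanylate-binding protein genes did not follow: Gbp2 (0.00 ± 0.12), Gbp3 (-0.15 ± 0.1), Gbp4 (0.07 ± 0.12), Gbp5 (0.05 ± 0.11) and Gbp7 (0.05 ± 0.11) all had adjusted p of 0.37 or more. Ifit2 (0.04 ± 0.12), next to Ifit3 on chromosome 19, was not called either.

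Genes of class I antigen presentation, which interferons also raise, were all measured, on a list that too was written after results were seen. Of the 13, 4 were called lower (30.8%, beside 2.36% of all genes) and 0 higher. The median was -0.28, beside -0.01 over all genes, and 13 of 13 were below zero, beside 8790 of all 16730 genes. H2-K1, a classical class I molecule, read 54.9, 63.0 and 60.7 against 41.8, 41.3 and 44.9 CPM (-0.48 ± 0.09, adjusted p = 0.0071) and kept its call with any library left out. Nlrc5, the transactivator of class I genes (-0.32 ± 0.08), Psmb8, a subunit of the immunoproteasome (-0.59 ± 0.16), and H2-Q4 (-0.37 ± 0.1) were called with all libraries. Nlrc5 and Psmb8 lost the call in 5 of 6 fits that left out a library and H2-Q4 in 4 (highest adjusted p 0.14, 0.22 and 0.2). Class I genes are close copies of each other, with the same uncertainty about shared reads. B2m, their common light chain, was level (-0.00 ± 0.09, adjusted p = 0.99).

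At the level of single regions the difference at these genes sat mainly at gene ends. Of 142 tested gene-end regions of these interferon response and wider interferon-stimulated genes, 18 were called lower (12.7%), beside 0.245% lower of all gene-end regions. Of the other 396 regions of these genes, 10 were lower (2.53%) and 2 higher, beside 0.35% lower of all such regions.

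Of 23 regions called lower that lie over a promoter window, 10 held the ISRE letters in that window (43.5%), against 340 of 10757 tested promoter regions (3.16%) and 3 of 58 higher ones (5.17%). These letters were searched for after the interferon genes were seen to differ. The letters TGANTCA, bound by AP-1 factors, were in 9 of the 23 (39.1%), against 5.37% of tested and 5.17% of higher promoter regions. In the same order, GATA letters (AGATAA) were in 21.7%, 6.34% and 5.17%, and NF-Y letters (CCAAT) in 60.9%, 38.6% and 48.3%. The letters GGGCGG, bound by SP factors, were in 26.1%, 66.8% and 63.8%, and the median GC content of the windows was 54.0%, 61.5% and 60.2%. Among promoter regions of genes on the interferon and class I lists, 8 of 14 lower ones (57.1%) and 30 of 82 others (36.6%) held the ISRE letters, and 6 of 14 (42.9%) and 6 of 82 (7.32%) held the AP-1 letters. All letters were searched on both strands, a match is no evidence of binding, and the STAT letters TTCNNNGAA, found in 1 of the 23, can overlap those of the ISRE. A comparison over whole genes was void, since only 302 of the 394 lower genes (76.6%) had a promoter window.

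The 3 uncultured E12.5 FL columns of the table put these levels beside those of cells not kept in culture, though no test was run against them. For single genes and regions, the uncultured values come from a scaling that includes these columns. The SHI and co-SHI values printed beside them come from a scaling without them, so small gaps are uncertain. Over the 19 measured interferon response genes, the median log2 difference from the uncultured mean was 0.32 for SHI and -0.17 for co-SHI. Over the 10 called ones, which were selected for SHI being above co-SHI, it was 0.76 and -0.17. Xaf1 read 15.6, 13.7 and 15.7 CPM in the uncultured columns, near its co-SHI values of 12.9 to 13.6 CPM and below its SHI values of 24.2 to 33.9 CPM. Irf9 read 27.2, 25.7 and 28.8 CPM, below both cultured groups. Rsad2 went the other way, with 51.6, 44.0 and 41.9 CPM, close to its SHI values. Over all 476 lower regions, also selected for SHI being above co-SHI, the median difference from the uncultured mean was 0.81 for SHI and -0.08 for co-SHI. Over the 336 higher regions, selected for co-SHI being above SHI, it was -0.25 and 0.49.

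Ly6a encodes Sca-1, one of the antigens that define the LSK phenotype, and is itself known to respond to interferon. It was the 1 member of the list of stem cell genes called lower, at 23.6, 16.7 and 27.9 CPM in the SHI and 13.2, 12.3 and 10.5 CPM in the co-SHI columns (-0.94 ± 0.16, adjusted p = 0.0064), and no libraries overlapped. Of its 3 regions 2 were called lower: 1 lying 5086 bases from the gene (chr15:74989291-74989791), at 14.9, 8.8 and 15.9 against 6.46, 6.57 and 6.26 CPM, and 1 lying 669 bases from its end (chr15:74998700-74999339), at 3.26, 4.06 and 4.83 against 1.92, 1.26 and 1.4 CPM. The uncultured columns read 7.22, 8.79 and 9.34 CPM summed for the gene, lower than in both cultured groups. In the rest of the list, the transcription factor gene Tal1 (0.25 ± 0.06) was higher, and the members not called included Kit (-0.11 ± 0.06), Mecom (-0.12 ± 0.06), Meis1 (0.05 ± 0.06), Hlf (0.10 ± 0.06), Gata2 (-0.09 ± 0.07) and Runx1 (-0.11 ± 0.07).

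Agpat2, which makes phosphatidic acid for the synthesis of triglycerides and phospholipids, was the lower gene of smallest p. It read 132, 176 and 135 CPM in the SHI and 83.1, 92.0 and 86.2 CPM in the co-SHI columns (-0.76 ± 0.09, adjusted p = 0.0011). Of its 6 regions 3 were called lower, 1 in the gene body (chr2:26595592-26596557) and 2 at the gene's end (chr2:26593233-26593733 and chr2:26593949-26594937). The region in the body read 20.7, 27.7 and 24.0 against 4.86, 6.62 and 9.87 CPM (-1.78 ± 0.18, adjusted p = 3.8e-07), and the uncultured columns read 4.95, 7.47 and 6.43 CPM there. None of the 6 peak lists had a peak over it. Tmprss2, a membrane serine protease gene, read 65.3, 53.9 and 73.2 against 41.3, 39.8 and 34.6 CPM (-0.74 ± 0.1, adjusted p = 0.0028). Its called region (chr16:97535771-97536304) lies 28378 bases from the gene and moved by -1.26 ± 0.15. The gene lost its call when only regions within 10 kb were summed (edgeR adjusted p = 0.25). Only protein-coding and long noncoding RNA genes served for assignment, and Mx1 and Mx2 of the interferon response list were not among the measured genes. Another gene may therefore lie nearer to this region than Tmprss2, which was not tested. Ralgds, an exchange factor for Ral GTPases, read 133, 141 and 140.0 against 106, 106 and 111 CPM (-0.35 ± 0.06). With gene-end regions alone its log2 fold change was 0.43 ± 0.25 (adjusted p = 0.36).

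Among genes higher in the co-SHI columns, the opsin gene Opn3 had the smallest p. It read 162, 150.0 and 169 CPM in the SHI and 242, 234 and 211 CPM in the co-SHI columns (0.51 ± 0.07, adjusted p = 0.0014), and its promoter region (chr1:175692502-175693086) rose by 0.51 ± 0.08 (adjusted p = 0.00044), from 133, 121 and 136 to 191, 188 and 177 CPM. Ripk2, a kinase that relays signals of bacterial sensors to NF-kB, read 238, 228 and 243 against 327, 330.0 and 290.0 CPM (0.42 ± 0.06, adjusted p = 0.0034). Nanp, a phosphatase of sialic acid synthesis (0.63 ± 0.09), Alkbh8, which modifies tRNA (0.61 ± 0.1), and Fpgt, of the fucose salvage pathway (0.49 ± 0.08), were also higher. All 5 kept their call in every fit. Higher genes further included large genes of the nervous system, with many regions each: Csmd1 (39 regions, 0.49 ± 0.08), Ntrk3, a neurotrophin receptor (15 regions, 0.53 ± 0.08), and Rimbp2, a protein of synaptic terminals (13 regions, 0.56 ± 0.08). These 3 were not called when gene-end regions alone were summed (adjusted p = 0.14, 0.34 and 0.84), and Rimbp2 then stood at -0.13 ± 0.26. In the uncultured columns these 3 genes read 182, 64.2 and 69.8 CPM on average, nearer to the co-SHI means (179, 70.5 and 72.0 CPM) than to the SHI means (128, 48.7 and 49.1 CPM).

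Zinc finger genes, taken as all genes named Zfp and a number, were often among the higher genes, and this group too was chosen after results were seen. Of 374 measured, 55 were higher (14.7%, beside 4.86% of all genes) and 1 was lower, with a median of 0.07. Zfp78 read 146, 133 and 153 against 193, 201 and 187 CPM (0.42 ± 0.06, adjusted p = 0.0034). Zfp990 read 73.6, 68.2 and 74.9 against 119, 116 and 93.2 CPM (0.60 ± 0.09, adjusted p = 0.0029), but not when regions within 10 kb alone were summed (adjusted p = 0.21). The Zfp genes called higher lay on chromosome 17 (11 of 42), 7 (10 of 91), 2 (9 of 24) and 4 (9 of 24), with 6 or fewer on any other. Many are neighbouring copies of one another, so that shared reads can be counted at more than 1 of them.

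**Figure D5:**
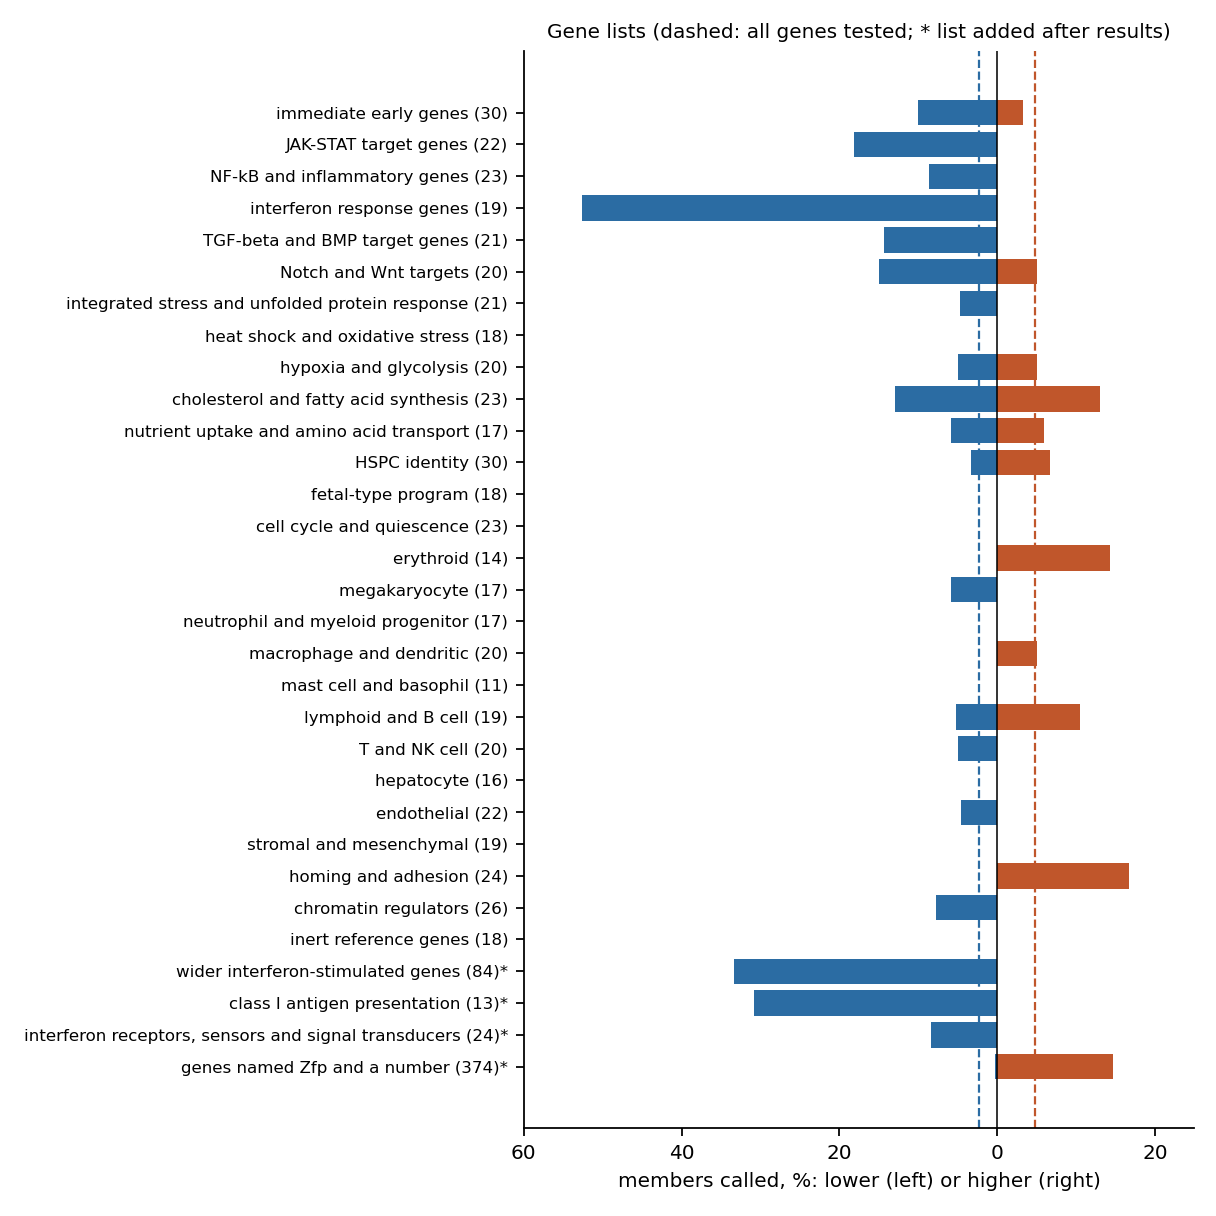
Share of the measured members (number in brackets) of each gene list called lower (bars to the left, %) or higher (to the right) in the co-SHI columns; dashed lines give the shares over all genes tested, 2.36% lower and 4.86% higher. The interferon response, wider interferon-stimulated and class I lists reach furthest to the left, and the list of interferon receptors, sensors and signal transducers does not. An asterisk marks the 4 lists written after results of this comparison were seen, and the others were written with earlier results of these data known.

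Genes downstream of other signalling pathways held smaller shares of lower genes. Of 22 measured JAK-STAT targets 4 were lower and 0 higher (18.2% lower, beside 2.36% of all genes; 0 were higher at an unadjusted p under 0.05). They were Socs3 (-0.25 ± 0.06), Lif (-0.33 ± 0.08), Bcl3 (-0.25 ± 0.07) and Stat5b (-0.25 ± 0.07). The list's median was -0.13 with 22 of 22 members below zero, beside 8790 of all 16730 genes and 14 of 18 inert reference genes (median -0.06). The STAT5 targets Cish (-0.11 ± 0.07, adjusted p = 0.36) and Socs2 (-0.08 ± 0.08, adjusted p = 0.59) were not called. Both stood above the uncultured columns in both media: Cish read 156, 146 and 139 CPM in SHI, 124, 132 and 152 CPM in co-SHI and 51.1, 54.1 and 51.9 CPM uncultured. Of 30 immediate early genes 3 were lower (10.0%, beside 2.36% of all genes) and 1 higher (3.33%, beside 4.86%). Egr1 (-0.25 ± 0.07, adjusted p = 0.048) was among the lower, while Fos (-0.07 ± 0.06), Junb (-0.15 ± 0.07), Atf3 (-0.19 ± 0.07) and Nr4a1 (-0.04 ± 0.06) were not called. Egr1 lost its call without any library but co-SHI 3 (highest adjusted p 0.23). Of 21 TGF-beta and BMP targets 3 were lower (14.3%), Id3 (-0.27 ± 0.06), Ltbp3 (-0.40 ± 0.1) and Smad7 (-0.23 ± 0.06), and Skil (-0.14 ± 0.06, adjusted p = 0.18) was not. Smad7, an inhibitor of the pathway, stood at 0.02 ± 0.1 with gene-end regions alone. Of 23 NF-kB and inflammatory genes 2 were lower (8.7%), Nfkb2 (-0.29 ± 0.07) and Nfkbia (-0.27 ± 0.07). Of 20 Notch and Wnt targets 3 were lower (15.0%) and 1 higher (5.0%).

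Of 23 measured genes of cholesterol and fatty acid synthesis, 3 were higher (13.0%, beside 4.86% of all genes), 3 lower (13.0%, beside 2.36%) and 17 not called, with a median of -0.05. The higher ones act in cholesterol synthesis: Hmgcs1 read 141, 139 and 147 CPM in the SHI and 175, 181 and 165 CPM in the co-SHI columns (0.29 ± 0.06, adjusted p = 0.012), followed by Cyp51 (0.30 ± 0.07) and Idi1 (0.26 ± 0.06). The lower ones act in fatty acid synthesis: Scd1 (-0.45 ± 0.11), Acaca (-0.25 ± 0.06) and Scd2 (-0.24 ± 0.06). Hmgcs1 lost its call without SHI 1, SHI 2, co-SHI 1 or co-SHI 2 (highest adjusted p 0.076).

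Of 14 measured erythroid genes 2 were higher (14.3%, beside 4.86% of all genes) and 0 lower (1 was lower at an unadjusted p under 0.05 in edgeR): Trim10, a gene of late erythroid cells, and the adult beta-globin gene Hbb-bs (1.06 ± 0.28, adjusted p = 0.032). The promoter region of Trim10 (chr17:36869186-36869688) read 2.02, 1.35 and 1.05 CPM in the SHI and 3.79, 4.2 and 6.85 CPM in the co-SHI columns (1.71 ± 0.31, adjusted p = 0.0046), and 1.59, 1.69 and 1.96 CPM uncultured. The summed level of all erythroid markers was 995 to 1040.0 CPM in SHI and 924 to 1060.0 CPM in co-SHI, overlapping ranges. Of 19 lymphoid and B cell genes 2 were higher (10.5%) and 1 was lower (5.26%), beside 4.86% and 2.36% of all genes. The higher ones were the transcription factor gene Ikzf1 (0.23 ± 0.06) and the recombinase gene Rag2 (0.62 ± 0.17). Dntt (-0.34 ± 0.08), which adds bases at recombined junctions, was lower. The megakaryocyte list held 1 lower gene of 17 (5.88%), the integrin gene Itga2b (-0.32 ± 0.08). The macrophage list held 1 higher gene of 20 (5.0%, beside 4.86% of all genes), Adgre1 (F4/80, 0.38 ± 0.09). The T and NK cell list held 1 lower gene of 20 (5.0%), Tcf7 (-0.24 ± 0.07). The endothelial list held 1 lower gene of 22 (4.55%), Pecam1 (-0.22 ± 0.06). With 1 call each, these lists cannot be set apart from all genes. Of 24 genes of homing and adhesion 4 were higher (16.7%, beside 4.86% of all genes), while the list's median was -0.01 with 13 of 24 members below zero: Rgs18 (0.47 ± 0.11), Cdh2 (0.35 ± 0.1), S1pr1 (0.21 ± 0.06) and Rgs2 (0.21 ± 0.06). Cxcr4, the receptor that holds stem cells in the marrow, was not called (0.08 ± 0.07, adjusted p = 0.51). In edgeR, 0 genes were called on the lists of neutrophil (4 of 17 with an unadjusted p under 0.05), mast cell (1 of 11), stromal (3 of 19), fetal-type (3 of 18), cell cycle (4 of 23), heat shock (2 of 18) and inert reference genes (3 of 18). DESeq2 called 1 cell cycle gene, 1 inert reference gene and 0 genes on the other 5 lists.

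The called regions were then looked up in the developmental libraries of the series, which share no library with the 6 columns compared. Of the 336 higher regions 235, and of the 476 lower regions 332, overlapped a region of that table by 50% of each. Between E12.5 and E16.5 fetal liver, the stage of the conditioning hepatocytes, the median log2 fold change (E16.5 over E12.5) was -0.32 for the higher regions, 0.22 for the lower regions and -0.05 for all 72268 joined regions. Of the higher regions 42 of 235 were above zero and of the lower regions 223 of 332, beside 32294 of all joined regions. edgeR called 1 of all joined regions in that contrast and 0 of these higher or lower regions. At an unadjusted p under 0.05, 55 of the higher regions had a negative and 0 a positive fold change, and 41 of the lower regions a positive and 4 a negative one, beside 3401 negative and 2003 positive among all joined regions. From E12.5 fetal liver to adult marrow at 8 weeks (8w BM), 28.5% of the higher regions fell and 15.3% rose, against 5.91% and 12.1% of joined regions. Of the lower regions 16.3% fell and 28.6% rose. From E16.5 fetal liver to perinatal marrow the directions did not oppose: the median was 0.32 for the higher regions, 0.36 for the lower and 0.06 for all joined regions. In that contrast 22.1% of the higher regions rose and 2.13% fell, 16.6% of the lower rose and 14.5% fell, and 7.98% and 1.14% of joined regions did. Median levels in the SHI and co-SHI columns were 6.7 and 11.9 CPM over the 336 higher regions and 10.3 and 5.24 CPM over the 476 lower ones. Over tested regions they were 3.04 and 3.03 CPM. Regions with more counts are called more easily in either direction, and the part of this in the shares called was not tested. Lower regions of interferon-stimulated genes, 24 of them, had a median of 0.68 from E12.5 fetal liver to adult marrow, where 11 rose, and of 0.36 from E16.5 to perinatal marrow, where 3 rose.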

How the data were processed

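Per the labels' protocols, nuclei were cut with Tn5 and libraries were amplified over 10 PCR cycles. Build mm10 and the tools HOMER, DiffBind, deepTools, MACS2 and Trim Galore appear in the submitters' processing notes; the aligner, duplicate removal, read shift and merging of regions are not given in the sources used here. The authors deposited raw counts per region, and, per library, peak lists with a fold enrichment (a ratio), −log10 p and q values and a whole-number score. Members and gene lists were chosen with earlier results of these data known.

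Regions and gene sums were tested with edgeR 4.0.16 (quasi-likelihood test, R 4.3.3) over the 6 libraries without a block, after a filter at a minimum count of 10 and TMM scaling, with Benjamini-Hochberg adjustment and a threshold of 0.05. Levels are TMM-scaled CPM, and SE is the log2 fold change divided by the square root of F. Levels of single genes and regions in the uncultured columns were scaled with these columns added to the 6 libraries. Genes are RefSeq spans of GRCm38.p6, an assembly with the coordinates of mm10, assigned within 50 kb. The developmental table was fitted in the same way over its own groups. DESeq2 1.42.0, other scalings, thinning, the block and leaving out each library were alternatives. Overlaps used bedtools 2.31.1, exact permutation tests SciPy 1.17.1. On simulated data for the regions co-SHI against SHI, 34% of 2-fold and 87% of 4-fold changes were recovered among 139676 regions, with 10 false calls. Fewer regions were changed in the simulated data than were called in the real data, and these shares depend on that number.

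Named regions were the 12 of smallest p in each direction with an adjusted p under 0.05, a log2 fold change of at least 1 in size, a level above the median and groups that do not overlap, 1 per gene. Named genes were the 12 of smallest p in each direction and up to 4 called members of each list, with predicted genes left out, plus a set of stem cell and signalling genes. Other genes of the interferon lists, and further called list members, were chosen after their values were seen. Some named genes are not reported here.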

Additional observations from a re-analysis of the deposited data

How the results depend on the processing

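The numbers of calls varied more when 1 library was left out than between methods, though a fit with fewer libraries also has less power. Leaving out 1 library gave 187 to 3439 regions and 129 to 2870 genes, 5 to 11 lower interferon response genes and 8 to 31 lower genes of the wider list. The other alternatives gave 566 to 1160 regions and 553 to 1372 genes; the 553 genes came from gene-end regions only, which sum fewer regions, and left 18 lower genes of the wider list. Under that setting 4 genes turned direction: Ralgds (0.43), Rimbp2 (-0.13), Rtp4 (0.27) and Smad7 (0.02); the cause was not tested. With both sets of co-varying regions removed, a choice made after seeing the data, 832 regions and 1260 genes were called. Deviations from the group mean correlated weakly between libraries of the same number (r = -0.018, 0.0451 and 0.062) and of different numbers (-0.0617 to 0.0329). Values this small do not decide whether the numbers pair the libraries. With the replicate block, 1079 regions and 866 genes were called, with 8 interferon response genes and 26 of the wider list lower. Thinned to the smallest library, 620 regions were called, of which 479 were among the 812. In the simulated data, with 3 libraries a group and 7376233 counts in the smallest, most 2-fold changes were missed at single regions. The share recovered depends on how many regions change, and fewer were changed there than were called here.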

Other observations

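Calls were uneven over chromosomes: 1 region was higher and 30 lower on chromosome 15, and 1 higher and 19 lower on chromosome 19. The deposited lists named SHI held 77272, 73769 and 72499 autosomal peaks and those named co-SHI 60745, 41154 and 74219. The means, 74513 ± 2472 and 58706 ± 16627 (SD, n = 3 each), gave a ratio of co-SHI over SHI that missed the threshold (0.788, exact permutation test, two-sided p = 0.3, where 0.1 is the smallest possible). With a −log10 q of at least 5 the ratio was 0.763 (exact p = 0.1). These names are those of the lists, which match the count columns of the other group.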
